A study of Mus musculus with 15 samples.

Results

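Hlf, Dbp and Tef encode the PAR bZIP transcription factors, and Nfil3 encodes a bZIP factor that binds the same DNA sites. DNA methylation at these 4 genes was measured in mouse bone marrow progenitors of 4 genotypes. The members are the CpGs inside each gene and in the 5 kb upstream of it (mm9, GENCODE vM1) with at least 10 reads in all 15 libraries, 62 of 241527 such CpGs on the autosomes. Hlf held 14 of them, Dbp 17, Tef 12 and Nfil3 19. The genes were chosen by family with results of these libraries known, Hlf first among them. The levels of Hlf in all 7 groups are therefore given as a description with no test. Dbp, Tef and Nfil3 carry the p-values of a fit across the genome, which are not independent evidence.

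Reduced representation bisulfite sequencing reads the CpG-rich share of the genome. Cytosines without methylation are converted by bisulfite, and the level of a CpG is the share of its reads left unconverted. Wild type (Mx1-cre+;Dnmt3af/f), Dnmt3a knockout (Mx1-cre+;Dnmt3a-/-) and Idh2 R140Q (Mx1-cre-;Dnmt3af/f;Idh2 R140Q) marrow was sorted into granulocyte-macrophage progenitors (GMP; CD34+, Cd16/32+) and megakaryocyte-erythroid progenitors (MEP; CD34-, Cd16/32-), both Lin-cKit+ and Sca1-, with 2 libraries a group. Double mutant cells (Mx1-cre+;Dnmt3a-/-;Idh2 R140Q), labelled malignant progenitors, were sorted with the MEP markers and gave 3 libraries. All groups were C57BL/6 and began from floxed Dnmt3a. Mx1-cre drives Cre from an interferon-responsive promoter, and Cre was present in all genotypes but Idh2 R140Q. Cre and the mutation therefore cannot be told apart between wild type and Idh2 R140Q. Between the double mutant and Idh2 R140Q, Cre and loss of Dnmt3a cannot be told apart. The labels give neither ages nor the way Idh2 R140Q was introduced. The labels speak of biological replicates without naming animals, so p-values measure the spread between these libraries. Dnmt3a places new DNA methylation. Idh2 R140Q makes 2-hydroxyglutarate, an inhibitor of the TET enzymes that remove methylation.

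PAR bZIP factors bind as dimers to the D-box, TTACGTAA or TTATGTAA, and activate genes in a daily rhythm under the control of the circadian clock. NFIL3, also called E4BP4, binds the same sites, mostly as a repressor, and is needed for natural killer and other innate lymphoid cells. HLF marks blood stem cells and helps keep them quiescent, and in human acute lymphoblastic leukaemia its DNA-binding part is fused to TCF3. Methylation was measured here and RNA was not, so nothing below is a level of expression.

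The sequences that carry the results follow, from mm9, plus strand, with each CG in capitals. The first 3 are the copies of a tandem repeat in Hlf. The first copy (chr11:90242836-90242865) and the last (chr11:90242954-90242983) hold 4 of the CpGs measured in the gene body, and the middle copy (chr11:90242895-90242924) holds none with enough reads. The fourth lies just upstream of the Hlf start, the next 3 lie upstream of Dbp and the last is in the first intron of Nfil3.
Hlf repeat, first copy: caaccCGggacatccctgagaCGCGagatg
Hlf repeat, middle copy: caactCGggacatccctgggactCGagatg
Hlf repeat, last copy: caaccCGggacatccctgggactCGagatg
Hlf start, chr11:90252330-90252359: gcatCGcCGcaCGCGctgtttttcCGgccc
Dbp distal upstream, chr7:52956710-52956739: ctcagactcagcacCGggggagagaaggta
Dbp distal upstream, chr7:52956819-52956848: ctctgaagatcaccCGgcctgccctttccc
Dbp proximal upstream, chr7:52959043-52959072: accacccCGgtccactcaccCGtggtttct
Nfil3 intron, chr13:53073370-53073399: gaaggccacCGggagaaaCGtggagctgtg
The starts of neighbouring repeat copies in Hlf are 59 bp apart. The middle copy differs from the first at 3 of 30 letters and the last at 2. The first copy and the last contain CCGG, the site of MspI, the enzyme most used for this assay, and the middle copy does not. Copies this alike can exchange reads in alignment, so levels in the repeat are uncertain.

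Total reads over cytosines ran from 19306705 to 24587340 in the Idh2 R140Q libraries, 20541812 to 26086791 in Dnmt3a knockout, 28001420 to 31657332 in the double mutant and 30751438 to 35204906 in wild type. The median depth at the common CpGs was 30 to 51 reads. Wild type libraries stood apart on the sex chromosomes. They had 54.0 to 57.5 chromosome Y reads per 1000000 autosomal reads against 199 to 386 in all others, and every comparison with wild type includes this difference, whose part was not tested. The mean level over all common CpGs was 42.3 ± 0.62% (SD, n = 3) in the double mutant and 38.2 to 40.7% in the other groups. Among fixed cell type markers, 4 of 9 erythroid and megakaryocyte genes, 5 of 9 granulocyte and macrophage genes and 0 of 9 genes of other cells had a CpG within 1 kb of the start. The promoter of Fcgr3, part of the CD16/32 marker used in the sort, was at 24.3 ± 2.9% (n = 3) in the double mutant and 6.98 to 10% in the other group means. Of the 9 covered markers, 2 were higher in the double mutant than in wild type MEP without overlap (Fcgr3 and Cebpe), 2 lower (Itga2b at 15.03 against 28.02%, and Pf4 at 0.46 against 3.56%) and 5 overlapped. The single mutant MEP groups shared these directions without overlap. Knockout and Idh2 R140Q MEP were at 10.7 and 14.3% at Itga2b and at 0.97 and 1.42% at Pf4. At Cebpe they were at 45.2 and 56.3%, against 43.1% in wild type MEP. The part of these differences in the results was not tested. Methylation of these promoters does not check the identity of the sorted cells.

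Hlf (ENSMUSG00000003949.8, chr11:90197849-90252231, minus strand) was unmethylated at its start and partly to fully methylated inside its second intron. Of 103 CpGs with a read, 14 passed the depth filter, 7 of them within 1 kb of the start and 7 in the gene body. A further intronic CpG passed in 13 libraries, among them all 9 sorted with MEP markers. The 4 CpGs in the repeat also fall in an untranslated exon of the transcript Hlf-005. Pooled over the gene body, levels were lower with knockout of Dnmt3a in both cell types, though not at every CpG, and the double mutant combined near-complete methylation at 3 CpGs with low levels at others. Because a library mixes many cells, a partial level cannot tell a change in every cell from a change in the share of cells.

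**Figure D1:**
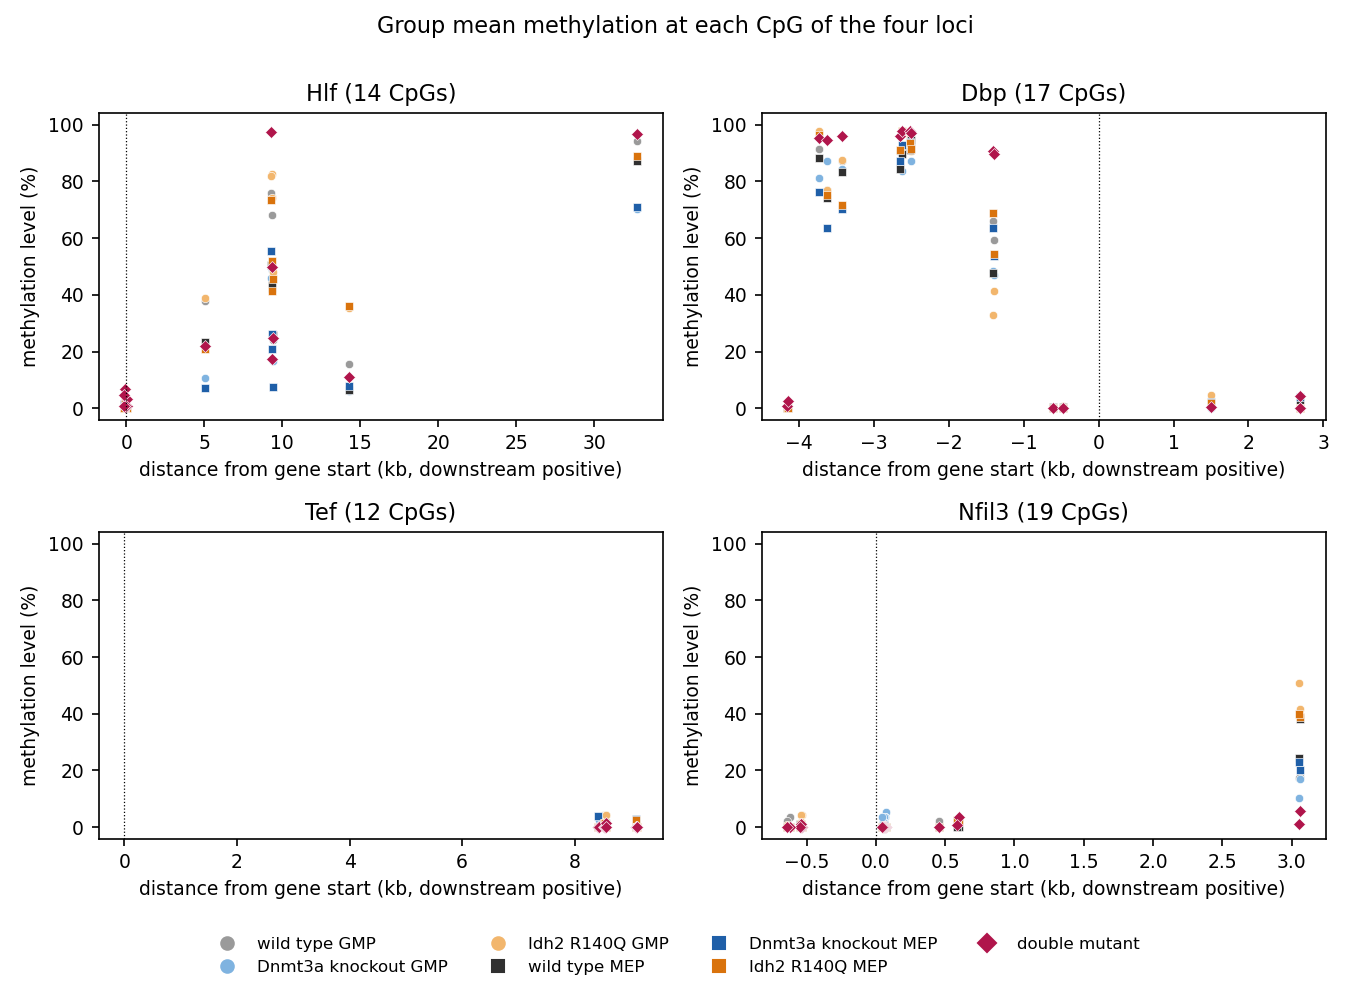
Mean methylation level (%) of each of the 7 groups at every CpG with at least 10 reads in all 15 libraries, against distance from the gene start (kb, downstream positive), with 1 panel for each gene. Hlf, Dbp and Nfil3 are near 0 around the start and methylated only further away, and all 12 CpGs of Tef are near 0.

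The 7 CpGs at the start of Hlf lie between 123 bp upstream and 45 bp downstream of it and had 11 to 87 reads a library. With their reads pooled, both wild type MEP libraries, both knockout GMP libraries and both Idh2 R140Q GMP libraries were at 0%. The wild type GMP libraries were at 0 and 0.31%, the knockout MEP libraries at 0 and 2.1%, and the Idh2 R140Q MEP libraries at 0.93 and 0%. The double mutant libraries were at 1.89, 3.73 and 2.58%, overlapping only the range of the knockout MEP libraries. The highest single value was 10.3%, in double mutant library 2 at the CpG 123 bp upstream. These levels are a few reads per CpG, and no group approached those of the gene body.

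In the gene body the 7 CpGs with enough reads everywhere were first pooled. Wild type GMP libraries were at 57.0 and 56.4%, knockout GMP at 37.4 and 35.3%, and Idh2 R140Q GMP at 72.5 and 63.2%. Among MEP, wild type was at 43.3 and 42.7%, knockout at 26.5 and 27.5%, and Idh2 R140Q at 57.5 and 42.5%. Double mutant libraries were at 43.9, 56.7 and 41.2%. Ordered by mean, the groups ran from Idh2 R140Q GMP (67.9 ± 6.6%, SD, n = 2) through wild type GMP (56.7 ± 0.46%, n = 2), Idh2 R140Q MEP (50 ± 10.6%, n = 2), double mutant (47.2 ± 8.3%, n = 3), wild type MEP (43.0 ± 0.39%, n = 2) and knockout GMP (36.4 ± 1.5%, n = 2) to knockout MEP (27.0 ± 0.69%, n = 2). From wild type GMP down to wild type MEP, each neighbour in that order overlapped the next, whereas the Idh2 R140Q GMP libraries lay above all others and the knockout groups below all others and apart from each other. Knockout was lower than wild type by 20.3 points in GMP and by 16.0 points in MEP, and wild type MEP was lower than wild type GMP by 13.7 points. Idh2 R140Q was 11.2 points above wild type in GMP with no overlap, and 7.02 points above it in MEP with overlap. That MEP difference became -0.48 points without the first Idh2 R140Q MEP library. With at least 20 reads, which left 2 of the 7 CpGs, the GMP difference of Idh2 R140Q turned to -2.19 points. The double mutant was 20.2 points above knockout MEP without overlap, 4.26 points above wild type MEP and at -2.76 points against Idh2 R140Q MEP, both with overlap, and the last 2 changed sign when 1 library was left out (to -0.45 and 4.73 points). With at least 20 reads, the difference of the double mutant was 28.7 points against wild type MEP, 34.5 against knockout MEP and 19.2 against Idh2 R140Q MEP. That of knockout was -5.74 points in MEP. The 2 CpGs left lie 32769 and 9272 bp downstream of the start, where all double mutant libraries were at 94.7 to 100%. The CpGs with low levels in the double mutant were among those dropped. Overlap also depended on the weighting. With each of the 7 CpGs counted equally, the double mutant was 5.67 points and Idh2 R140Q MEP 11.3 points above wild type MEP, both without overlap. The comparisons share wild type MEP or double mutant libraries and are not independent of each other.

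Pooling hid large differences between CpGs, shown in the plot of single CpGs of Hlf.

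**Figure D2:**
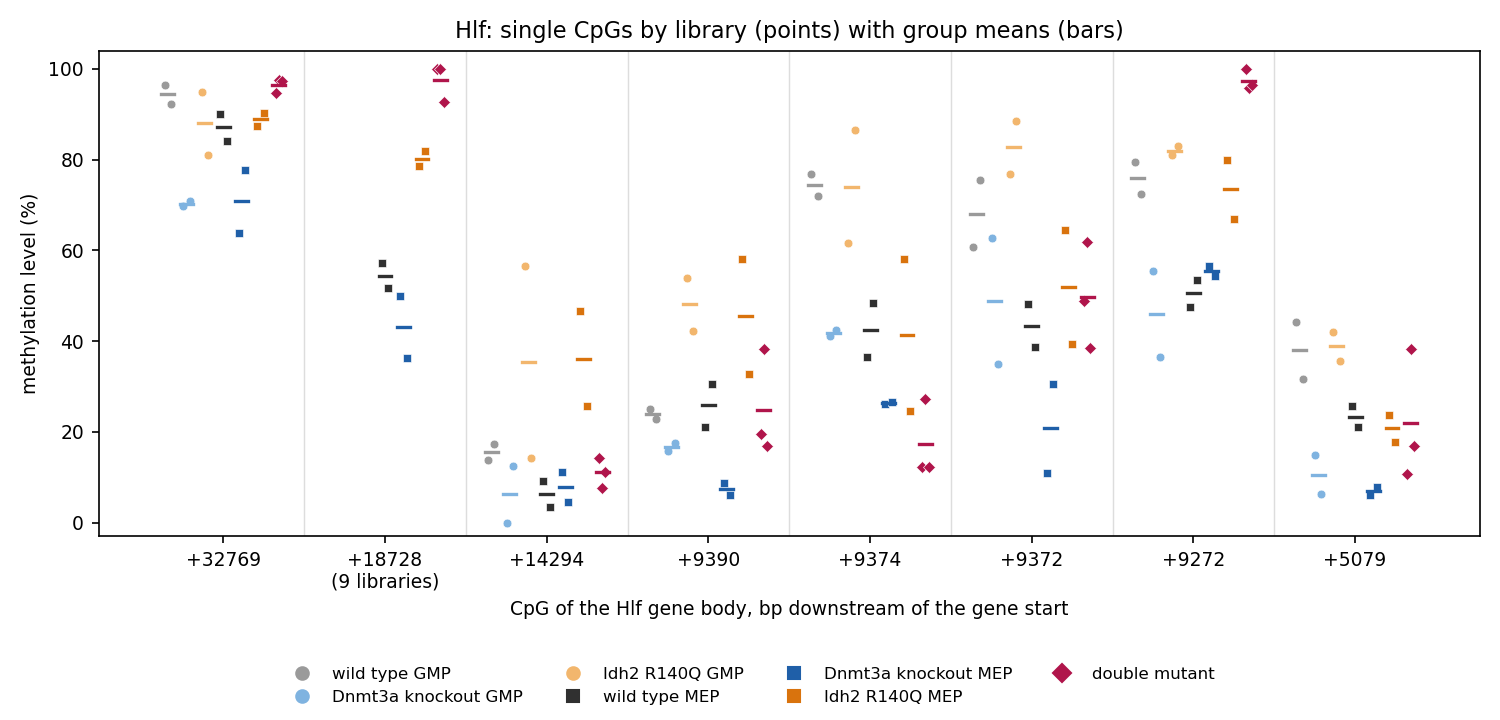
Methylation level (%) of each library (points; bars are group means) at the 8 CpGs of the Hlf gene body, ordered along the plus strand and labelled by distance from the gene start in bp. Double mutant libraries are at 92.6 to 100% at the CpGs 32769, 18728 and 9272 bp downstream, and at 12.2 to 27.3% at the CpG 9374 bp downstream. GMP libraries are not drawn at 18728 bp, where 2 of the 6 had under 10 reads.

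The CpG farthest into the gene, 32769 bp downstream of the start, had 21 to 82 reads. Wild type GMP libraries were at 96.6 and 92.2% and wild type MEP at 90.1 and 84.1%. Knockout libraries were at 69.8 and 70.8% in GMP and at 63.9 and 77.8% in MEP. Idh2 R140Q libraries were at 95.0 and 81.0% in GMP and at 87.5 and 90.3% in MEP, and the double mutant was at 94.7, 97.5 and 97.4%. The 4 knockout libraries were the lowest of the 15. The double mutant, which carries the same Dnmt3a deletion, lay above all MEP libraries of the single mutants and of wild type.

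At the CpG 18728 bp downstream, which had 11 to 40 reads in the 9 libraries with MEP markers, wild type was at 57.1 and 51.6% and knockout at 50 and 36.4%. Idh2 R140Q was at 78.6 and 81.8%, and the double mutant at 100, 100 and 92.6%. These 4 groups did not overlap, in the order knockout, wild type, Idh2 R140Q, double mutant. Of the GMP libraries 4 had enough reads, both wild type (61.7 and 66.7%), 1 knockout (40%) and 1 Idh2 R140Q (81.2%). Double mutant exceeded wild type by 43.2 points, knockout by 54.3 points and Idh2 R140Q by 17.3 points.

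The CpG 14294 bp downstream was highest in Idh2 R140Q libraries, though 1 of the 4 lay within the range of the others. Its levels in that genotype were 56.6 and 14.3% in GMP and 46.7 and 25.6% in MEP. All other libraries lay between 0 and 17.4%, the double mutant at 14.3, 7.7 and 11.1%. The double mutant was thus 25.1 points below Idh2 R140Q MEP without overlap and overlapped wild type MEP (9.1 and 3.4%). It had 13 to 72 reads a library.

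The tandem repeat lies 9272 to 9390 bp downstream. Its first copy holds 3 CpGs, read by the same 13 to 65 reads per library on the plus strand. At the outer of these, 9390 bp downstream, Idh2 R140Q libraries were at 53.8 and 42.3% in GMP and 58.1 and 32.8% in MEP. Wild type was at 25 and 22.8% in GMP and 21.2 and 30.6% in MEP, and knockout at 15.7 and 17.5% and at 8.7 and 6.1%. Idh2 R140Q was above wild type and knockout was below it in both cell types without overlap, and the double mutant (19.5, 38.2 and 16.9%) overlapped wild type MEP. The neighbouring CpG, 9374 bp downstream, was at 12.2, 27.3 and 12.3% in the double mutant against 36.5 and 48.4% in wild type MEP, 26.1 and 26.5% in knockout MEP and 58.1 and 24.6% in Idh2 R140Q MEP. There the double mutant was 25.2 points below wild type MEP, the only gene body CpG of Hlf at which it was lower by at least 10 points without overlap. The same CpG was at 76.8 and 71.9% in wild type GMP and at 41.2 and 42.5% in knockout GMP. The third CpG of the copy, 9372 bp downstream, was at 48.8, 61.8 and 38.5% in the double mutant and at 10.9 and 30.6% in knockout MEP, with wild type MEP at 48.1 and 38.7%.

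The last copy of the repeat gave the opposite picture in the double mutant. Its CpG, 9272 bp downstream, corresponds to the one 9390 bp downstream in the first copy and had 32 to 106 reads. Levels in the double mutant were 100, 95.7 and 96.4%, above every other library. Wild type MEP was at 47.6 and 53.5%, knockout MEP at 56.6 and 54.3%, and Idh2 R140Q MEP at 80.0 and 67.0%. In GMP, wild type was at 79.5 and 72.5%, knockout at 55.4 and 36.5% and Idh2 R140Q at 81.0 and 82.9%. The double mutant exceeded wild type MEP by 46.9 points, knockout MEP by 41.9 points and Idh2 R140Q MEP by 23.9 points. So the 2 CCGG sites of the repeat, 118 bp apart, were at means of 24.9 ± 11.6% and 97.4 ± 2.3% (SD, n = 3) in the same double mutant libraries. All reads at the first copy came from the plus strand and 5.54% of those at the last, so copy and strand cannot be told apart.

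The last CpG, 5079 bp downstream and nearest to the start, had 19 to 125 reads. Wild type was at 44.1 and 31.7% in GMP and 25.7 and 21.0% in MEP. Knockout was at 14.9 and 6.2% in GMP and at 6.2 and 7.8% in MEP, the 4 lowest of the GMP and MEP libraries. Idh2 R140Q (42.1 and 35.6% in GMP, 23.8 and 17.7% in MEP) overlapped wild type, and the double mutant ranged widely (10.8, 38.3 and 16.8%).

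Counted over the 14 CpGs of Hlf, knockout was lower by at least 10 points with no overlap of libraries at 4 CpGs in GMP and 5 in MEP; over all common CpGs the shares were 5.35% and 3.9%. Idh2 R140Q was higher in this way at 2 CpGs in GMP and 3 in MEP, where the shares over all CpGs were 7.2% and 6.92%. The double mutant was higher at 1 and lower at 1 against wild type MEP (14.4% and 3.45% of all CpGs), higher at 5 and lower at 0 against knockout MEP (12.2% and 3.75%), and higher at 1 and lower at 1 against Idh2 R140Q MEP (13% and 4.74%). As Hlf was chosen on these levels, the counts describe it only.

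Dbp (ENSMUSG00000059824.4, chr7:52960458-52965525, plus strand), named for the albumin D-site to which it binds, was nearly unmethylated at the CpGs measured from 617 bp upstream to 2692 bp downstream of its start and heavily methylated further upstream. That upstream stretch overlaps the neighbouring gene Car11. Of 114 CpGs with a read 17 passed the filter. The 6 from 617 bp upstream onwards reached at most 13.04% in any library. A CpG 2432 bp downstream, with enough reads in 14 libraries, was at 22.2% in knockout MEP library 2 and at most 2.86% in the others. Of the 11 farther out, the 2 outermost were at 0 to 7.41%. The next 3, 3734 to 3434 bp upstream, were at 47.4 to 100%, and the 4 about 2.6 kb upstream at 75.9 to 100%. The last 2, 1408 and 1395 bp upstream, were the most variable of the locus.

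In the genome-wide fit (quasi-binomial model over 29251 windows of 1 kb, Benjamini-Hochberg adjusted p under 0.05 and at least 10 points), 1 of the 7 windows of Dbp, Tef and Nfil3 was called, in 1 comparison. With windows of 500 bp 0 were called. This was the window chr7:52956001-52957000 upstream of Dbp, higher in the double mutant than in knockout MEP. Double mutant libraries were at 45.8, 50 and 45.5%, knockout MEP at 13.1 and 29.4%, wild type MEP at 33.2 and 33.9% and Idh2 R140Q MEP at 38.3 and 33.0%. The double mutant lay above all of these, and Idh2 R140Q GMP (45.9 and 47.8%) was as high. The difference was 25.9 points from knockout (adjusted p = 0.00166), where 11.9% of all windows were called higher and 1.84% lower. It was 13.6 points from wild type (adjusted p = 0.0855; 12.8% of all windows higher, 2.11% lower) and 11.5 points from Idh2 R140Q (adjusted p = 0.134; 11.1% higher, 3.65% lower). When either knockout MEP library was left out, the same window was also called against wild type and Idh2 R140Q. Knockout MEP is in neither comparison, and the differences stayed at 13.6 and 11.5 points. Those fits drop the spread between the knockout MEP libraries from the shared estimate, so these calls add no support. Without knockout MEP library 2, the window was 20.4 points lower in knockout than in wild type MEP. The neighbouring window, chr7:52957001-52958000, was not called, but was called against wild type without wild type MEP library 2 (11.2 points, adjusted p = 0.0267), against knockout without knockout MEP library 2 (16.7 points, 0.0215) and against Idh2 R140Q without Idh2 R140Q MEP library 1 (15.4 points, 0.0237). The first window mixes 2 unmethylated and 2 methylated CpGs, and the methylated ones gave 22.6 and 35.7% of its reads in knockout MEP against 45.8 to 52.8% in the double mutant. With each CpG counted equally, the difference from knockout was 13.4 points, still without overlap. At the 2 methylated CpGs, 3734 and 3625 bp upstream, the double mutant exceeded knockout by 19.0 and 31.1 points without overlap, with adjusted p of 0.159 and 0.0569 in a fit of single CpGs that was added after the data were seen.

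Knockout of Dnmt3a alone and Idh2 R140Q alone gave no called window among these 7 in either cell type (quasi-binomial model). Unadjusted p of that model was under 0.05 at 1 window for knockout GMP, 2 for knockout MEP, 1 for Idh2 R140Q GMP and 0 for Idh2 R140Q MEP. Of all 29251 windows, 2286, 4974, 4493 and 3621 were under it. Limma called 0 of the 7 in all 4 comparisons. It called only 0, 1, 0 and 1 of all windows there, so its 0 among the 7 carries no weight. The quasi-binomial model called 0.239% of all windows for knockout GMP, 0.643% for knockout MEP, 0.759% for Idh2 R140Q GMP and 1.24% for Idh2 R140Q MEP. For wild type MEP against GMP it called 0.116% of all windows and 0 of these 7. There 0 of the 7 had an unadjusted p under 0.05, beside 1560 of all windows, and limma called 0 of all windows. The median difference over the 7 windows was 1.39 points when the double mutant was set against wild type MEP, 0.81 against knockout MEP and 2.13 against Idh2 R140Q MEP, beside 1.34, 0.35 and 0.61 points over all windows.

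The proximal pair of Dbp CpGs, 1408 and 1395 bp upstream, had 13 to 30 reads. With both pooled, the double mutant was at 87.0, 92.2 and 90.9%. Wild type was at 58.6 and 66.7% in GMP and at 51.2 and 50% in MEP. The mutants spread more widely. Knockout was at 34.8 and 61.0% in GMP and 76.9 and 40.8% in MEP, and Idh2 R140Q at 10.5 and 63.9% in GMP and 36.4 and 87.5% in MEP. Its mean in the double mutant exceeded that of wild type MEP by 39.4 points and that of knockout MEP by 31.1 points without overlap, whereas Idh2 R140Q MEP overlapped. Neither CpG was called in the added fit of single CpGs. The adjusted p against wild type MEP was 0.0556 and 0.24. One CpG of Dbp was called there, 2651 bp upstream, 11.9 points higher in the double mutant than in wild type MEP (adjusted p = 0.0455), a call that ended in 12 of 15 fits with a library left out.

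Tef (ENSMUSG00000022389.7, chr15:81632851-81657291, plus strand), the thyrotroph embryonic factor, showed no methylation to compare. Its 12 CpGs of 53 with a read all lie in the first intron of its longest transcript, 8417 to 9111 bp from the start, around a further transcript start. The highest value in any library was 8.7%. With all 12 pooled, libraries ranged from 0 to 2.13%, and the double mutant was at 0.31, 0 and 0%. The start of the longest transcript itself was covered at 1 CpG, 338 bp downstream, at 0% in the 13 libraries with enough reads.

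Nfil3 (ENSMUSG00000056749.7, chr13:53062578-53076442, minus strand) was lower in the double mutant at 2 intronic CpGs. Around its start, 17 CpGs pooled gave 0 to 2.91% in every library. The other 2 of its 19 CpGs (180 had a read) lie 9 bp apart in the first intron. They are 3063 and 3054 bp downstream of the start, at 51 to 113 reads. All their reads came from the plus strand (1178 and 1181 over all libraries). Counts per library were nearly equal, so both CpGs were read largely by the same reads. At the first, the double mutant was at 3.3, 9.5 and 4.5%, wild type MEP at 39.8 and 36.3%, knockout MEP at 22.4 and 17.6% and Idh2 R140Q MEP at 55.8 and 21.8%. At the second, the double mutant was at 0, 3.6 and 0%, wild type MEP at 21.4 and 27.4%, knockout MEP at 16.3 and 29.4% and Idh2 R140Q MEP at 55.8 and 24.1%. All 3 double mutant libraries lay below the other 12 libraries at both CpGs.

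In GMP, the 2 intronic CpGs of Nfil3 pooled were at 21.1 and 13.9% in wild type, 11.7 and 15.3% in knockout and 40.5 and 52.0% in Idh2 R140Q. Idh2 R140Q was thus 28.7 points above wild type GMP without overlap, while in MEP its libraries (55.8 and 23.0%) overlapped wild type (30.5 and 31.9%). Wild type MEP was 13.7 points above wild type GMP without overlap. Neither CpG was called in these comparisons in the fit described next.

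Windows need at least 3 CpGs, so this pair was in no window and was tested only in the added fit of single CpGs over 241527 CpGs. The first CpG fell by 32.2 points against wild type MEP (adjusted p = 0.00515) and by 33.0 points against Idh2 R140Q MEP (adjusted p = 0.014), and was 14.3 points lower than knockout MEP (adjusted p = 0.103). The second fell by 23.2 points against wild type MEP (adjusted p = 0.0127), by 21.7 points against knockout MEP (adjusted p = 0.0265) and by 38.8 points against Idh2 R140Q MEP (adjusted p = 0.00618). Over all CpGs 9.06%, 7.51% and 8.06% were called in these 3 comparisons, in either direction. As the 2 CpGs share most of their reads, their calls are not separate support. Without wild type MEP library 2 the second call against wild type ended (adjusted p = 0.0763). The call against knockout ended without either knockout MEP library or double mutant library 1 or 3 (adjusted p = 0.0631 to 0.109). The calls of the first CpG, and that of the second against Idh2 R140Q, held with any library left out. Upstream, 1188 bp from the start, a CpG with enough reads in 14 libraries, and so in no fit, was at 0, 4.3 and 1.9% in the double mutant. Wild type MEP was at 19.4 and 31.9%, knockout MEP at 39.3 and 33.3% and Idh2 R140Q MEP at 0 and 46.2%. In GMP, wild type was at 12.1 and 13.9%, knockout at 28.6 and 42.1% and the 1 Idh2 R140Q library with enough reads at 28.6%. At the CpG next to it, 1201 bp upstream, the double mutant (0, 2.2 and 9.3%) overlapped all MEP groups. Wild type MEP was at 6.5 and 36.2%, knockout MEP at 7.1 and 16.7% and Idh2 R140Q MEP at 5.6 and 23.1%. A further intronic CpG, 2694 bp downstream, was at 4.4, 0 and 10.5% in the double mutant. It overlapped wild type MEP (17.0 and 6.0%).

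Of the other CpGs, none in Tef differed by at least 10 points without overlap in any of the 8 comparisons. Dbp had 4 of 17 such CpGs higher in the double mutant than in wild type MEP, 4 than in knockout MEP and 2 than in Idh2 R140Q MEP, and 0 lower; over all CpGs 14.4%, 12.2% and 13% were higher. Nfil3 had 0 of 19 higher and the same 2 intronic CpGs lower in each. Over all CpGs 3.45%, 3.75% and 4.74% were lower. These 2 share most of their reads and are not separate observations. The same holds for the Dbp pair 1408 and 1395 bp upstream, which is counted against wild type and knockout MEP.

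**Figure D3:**
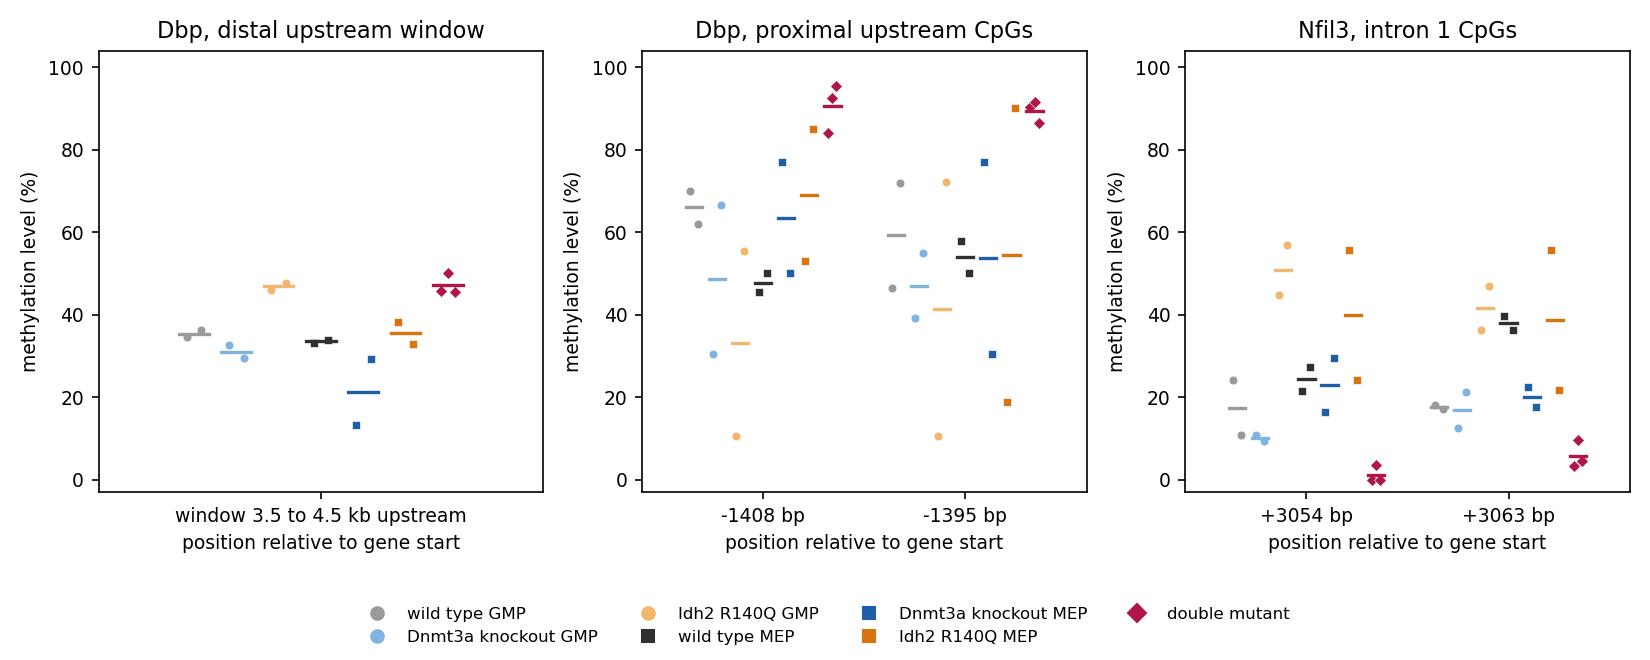
Methylation level (%) of each library (points; bars are group means) in the called window upstream of Dbp, at the 2 CpGs 1408 and 1395 bp upstream of Dbp and at the 2 intronic CpGs of Nfil3. Double mutant libraries are the highest at Dbp 1408 bp upstream except for 1 Idh2 R140Q MEP library between them, and the lowest of all 15 at both Nfil3 CpGs.

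Genes around the PAR bZIP factors were grouped by role: circadian clock genes, which drive Dbp, Tef and Hlf, C/EBP bZIP factors, TCF3 and genes tied to the TCF3-HLF fusion, and liver genes known as PAR bZIP targets. Of 20 clock genes 19 had a window (44 windows), as did 5 of 6 C/EBP genes (10), 4 of 5 fusion genes (9) and 4 of 7 targets (7). Of these 70 windows, 5 were called higher and 0 lower in the double mutant against wild type MEP, 7 and 0 against knockout MEP, and 5 and 1 against Idh2 R140Q MEP. The median difference over the 70 was 0.47, 0.28 and 0.23 points, beside 1.34, 0.35 and 0.61 points over all windows. Of all windows 12.8%, 11.9% and 11.1% were higher in these comparisons, so the related genes did not exceed the background. Knockout MEP had 1 window called lower (quasi-binomial model). Knockout GMP, Idh2 R140Q GMP, Idh2 R140Q MEP and wild type MEP against GMP had 0. In these 4, unadjusted p of that model was under 0.05 at 4, 10, 7 and 3 of the 70 windows. Of all 29251 windows, 2286, 4493, 3621 and 1560 were under it. Limma called 0 of the 70 there. It called only 0, 0, 1 and 0 of all windows, so its 0 among the 70 carries no weight.

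The clock list, with 44 of the 70 windows, had 4 windows called higher against wild type MEP, 6 against knockout MEP and 4 against Idh2 R140Q MEP. Npas2, a paralogue of Clock that pairs with BMAL1, rose in a window within 1 kb of its start (chr1:39251001-39252000, 3 CpGs). The double mutant was at 35.9, 30.7 and 28.2% and the other 12 libraries at 0 to 3.91%. The differences were 31.6 points from wild type MEP (adjusted p = 2.63e-05), 31.4 from knockout MEP (1.49e-05) and 29.3 from Idh2 R140Q MEP (5.74e-05). The window before it, which holds the Npas2 start (6 CpGs), was not called. There the double mutant was at 1.44, 0.62 and 3.7%. Rora, a nuclear receptor that activates transcription of Arntl, rose at 2 unmethylated windows. At the first (chr9:68502001-68503000, within 1 kb of the annotated start) the double mutant was at 21.6, 34.0 and 34.1% and all others at 0 to 2.87%. This was a rise of 28.8 to 29.3 points (largest adjusted p of the 3 comparisons 5.22e-05). At the other (chr9:69139001-69140000, in the gene body) it was at 15.7, 21.8 and 19.9% and all others at 0 to 2.86%, a rise of 17.7 to 19.0 points (largest adjusted p 0.000199). The calls in these 3 windows held with each library left out and in limma. With each CpG counted equally, a weighting with no test, the differences were 17.6 to 35.2 points and the libraries did not overlap.

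Rorb, a related receptor, was partly methylated in a window within 1 kb of its start (chr19:19184001-19185000). The double mutant was at 58.5, 51.4 and 36.3%, wild type MEP at 22.9 and 30.4%, knockout MEP at 15.1 and 14.0% and Idh2 R140Q MEP at 17.1 and 23.6%. It rose by 22.1 points against wild type (adjusted p = 0.0189), 34.2 against knockout (adjusted p = 0.00278) and 28.4 against Idh2 R140Q (adjusted p = 0.0153). The first call ended without wild type MEP library 1 (adjusted p = 0.18), double mutant library 1 (0.0657) or 2 (0.071), and the third without either Idh2 R140Q MEP library (0.0696 and 0.0854). Against knockout MEP alone, a Rora window methylated in all groups (chr9:68609001-68610000) was 15.4 points higher (adjusted p = 0.0146, ending without knockout MEP library 1, 0.152, or double mutant library 3, 0.0513). A window upstream of Arntl, which encodes BMAL1 (chr7:120348001-120349000), was 13.7 points higher (adjusted p = 0.0369, ending without any 1 knockout MEP or double mutant library, 0.0609 to 0.151). At Arntl the double mutant (40.1, 42.5 and 41.6%) lay just below wild type MEP (43.3 and 43.6%), and knockout MEP (27.8 and 27.7%) lay below both.

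**Figure D4:**
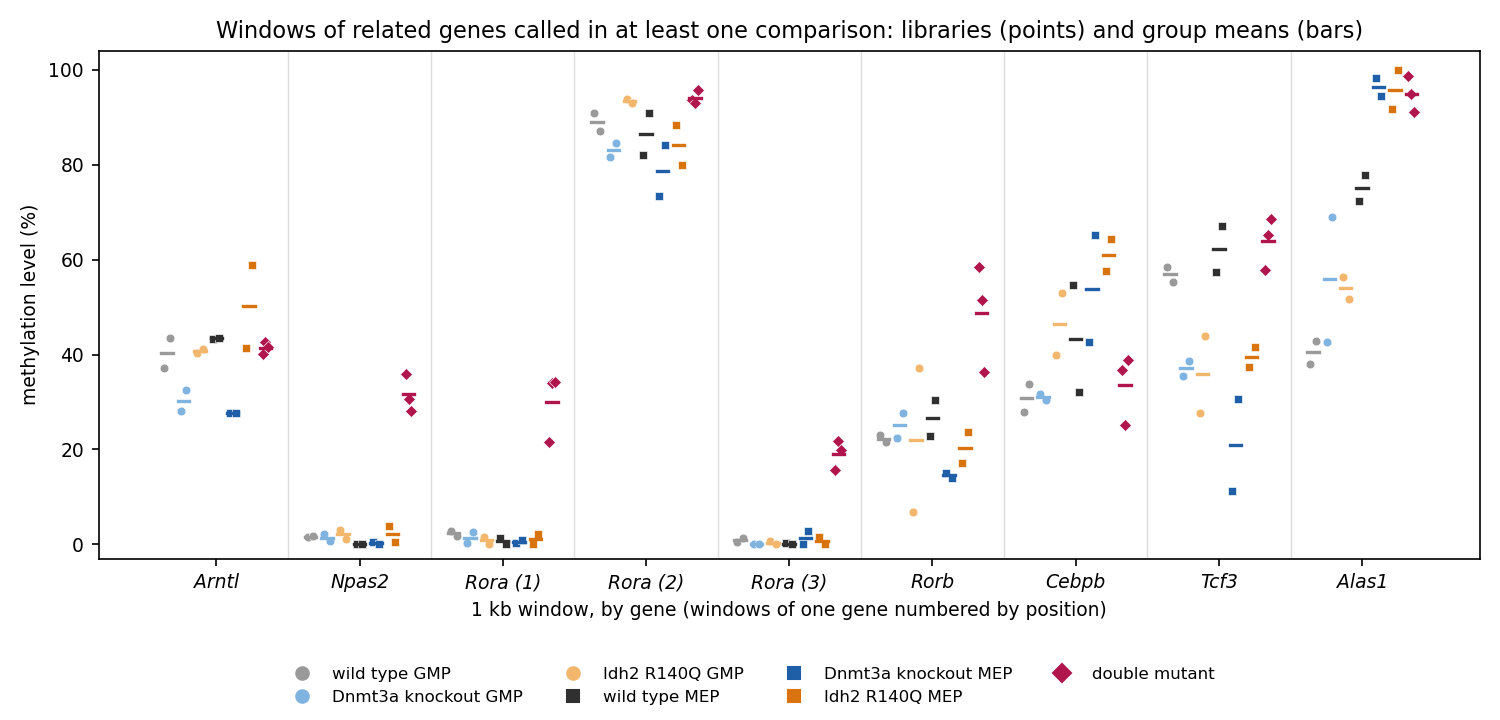
Methylation level (%) of each library (points; bars are group means) in the 9 windows of related genes called in at least 1 comparison, windows of a gene numbered by position. Npas2, the first Rora window and the last are near 0 in all but the 3 double mutant libraries, which are at 15.7 to 35.9%.

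Outside the clock list, 3 genes had calls. A window upstream of Cebpb, a bZIP factor of myeloid cells and liver (chr2:167513001-167514000), was lower in the double mutant (36.8, 25.2 and 38.8%) than in Idh2 R140Q MEP (57.7 and 64.4%) by 27.4 points (adjusted p = 0.024). That call ended without Idh2 R140Q MEP library 2 (0.154) or double mutant library 2 (0.0908). A window of Alas1, the first enzyme of haem synthesis (chr9:106148001-106149000), was higher in the double mutant (98.7, 95.0 and 91.1%) than in wild type MEP (72.4 and 77.8%) by 19.8 points (adjusted p = 0.00234), a call that limma ended (adjusted p = 0.0832). Knockout MEP (98.2 and 94.4%) and Idh2 R140Q MEP (91.7 and 100%) were as high, while GMP libraries were at 38.1 to 69.0%. The window upstream of Tcf3 (chr10:79898001-79899000) was called lower in knockout than in wild type MEP by 41.4 points (adjusted p = 0.0261), and higher in the double mutant than in knockout by 42.9 points (adjusted p = 0.000344) and than in Idh2 R140Q by 24.3 points (adjusted p = 0.0314). Its 1 highly methylated CpG gave 63.8 and 75.2% of the reads in wild type MEP, 9.35 and 42.3% in knockout MEP, 41.3 and 40.6% in Idh2 R140Q MEP and 58.6 to 68.5% in the double mutant. With each of its 3 CpGs counted equally the 3 differences were -3.84, 5.44 and 2.18 points, and the libraries overlapped. The Tcf3 calls thus depend on the share of reads from each CpG.

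The window of Hlf with the widest range of group means, 44.7 points, was the repeat (chr11:90242001-90243000, 4 CpGs). Its pattern over the 15 libraries was compared with 4808 windows more than 1 Mb away whose group means ranged over at least 20 points. The 5 most alike by Pearson r, given as a description over libraries that share genotype and depth, were in Gm13117 (r = 0.891), 94245 bp from the start of Hs6st1 (0.882), 12030 bp from that of Maff (0.878), 7638 bp from that of 1500002O20Rik (0.863) and 759 bp from that of 9530056K15Rik (0.859). In all 5, as in Hlf, Idh2 R140Q GMP had the highest mean of the 7 groups and knockout lay below wild type in both cell types. The closest, in Gm13117, ran from 60.1% in knockout GMP to 85.1% in Idh2 R140Q GMP.

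**Figure D5:**
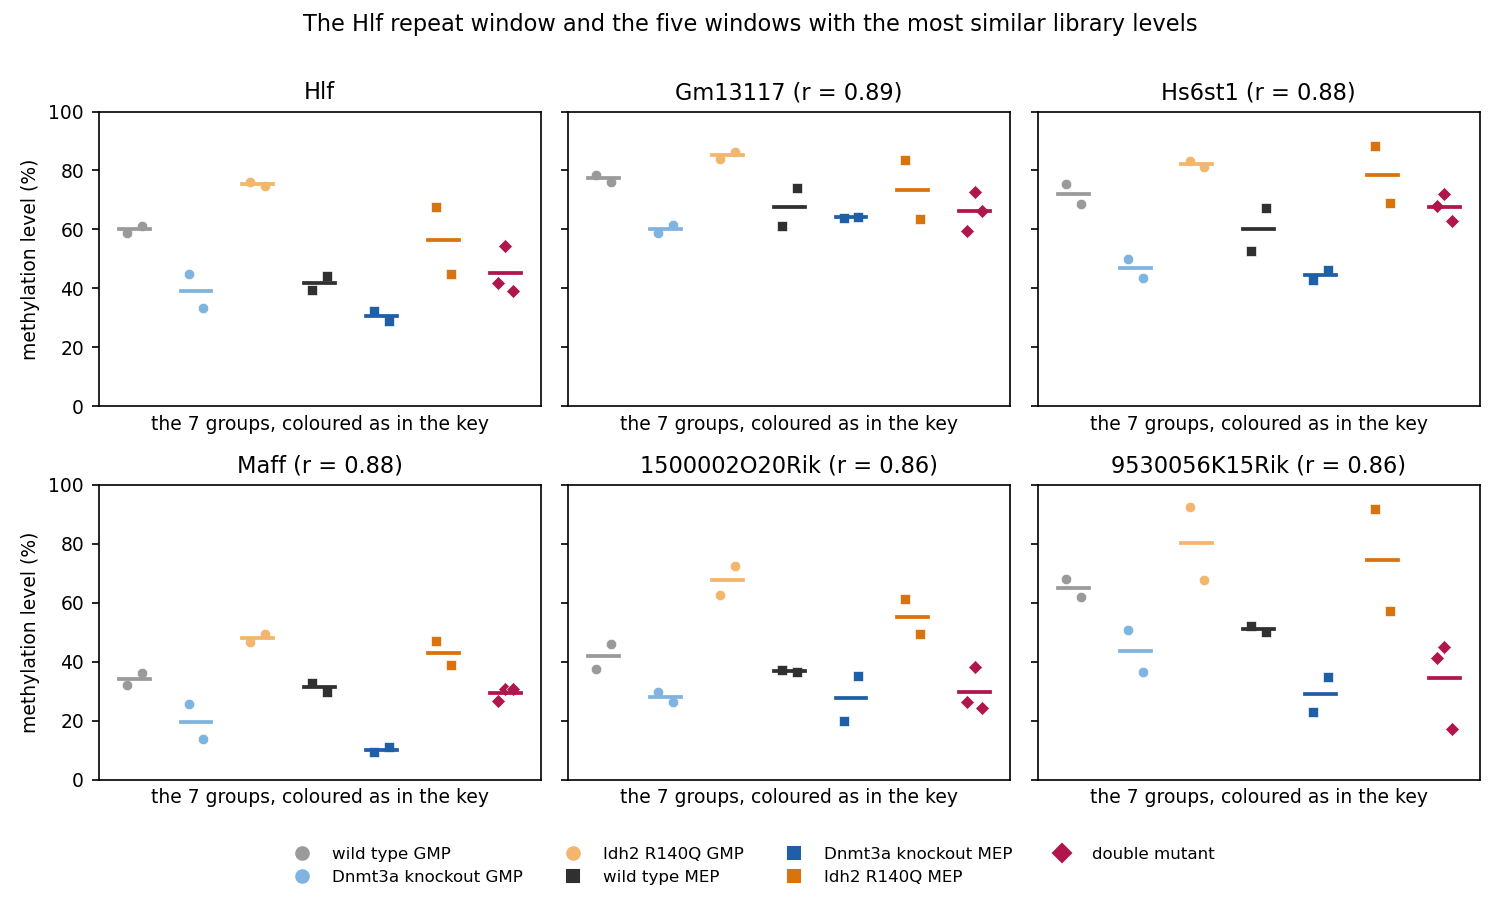
Methylation level (%) of each library (points; bars are group means) in the Hlf repeat window and in the 5 windows with the highest Pearson r to it over 15 libraries, named by the gene that holds them or has the nearest start. In each panel Idh2 R140Q GMP has the highest mean and both knockout groups lie below wild type of the same cell type.

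The D-box itself was then examined across the genome. TTACGTAA has a CpG at its centre, so methylation could be read inside it, but only 4 such CpGs on either strand passed the filter. Levels were low, from 0 to 7.72% per library, with 1.27, 2.78 and 0.38% in the double mutant and 0 and 1.07% in wild type MEP. The 8 differences between groups ran from -1.40 to 2.94 points, and every exact two-sided permutation p was 0.4 or more (1 after Benjamini-Hochberg adjustment over the 8); the smallest possible p is 0.333 for 2 against 2 libraries and 0.1 for 3 against 2. For comparison, 77 CpGs in TGACGTCA, the site of CREB and ATF factors, were at 16.9 ± 0.32% (n = 3) in the double mutant and 18.4 ± 0.61% (n = 2) in wild type MEP, and 13 in TTGCGCAA, a C/EBP site, at 49.5 ± 0.90% (n = 3) and 43.9 ± 0.80% (n = 2). Both differences were without overlap and had the smallest exact permutation p possible, 0.1 (0.267 adjusted over 8 comparisons of each motif). All common CpGs together were 4.15 points higher in the double mutant than in wild type MEP, with the same p of 0.1.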

How the data were processed

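The authors deposited, for each of 15 libraries, a table of single cytosines with counts of methylated and of all reads and a fraction, their ratio. Reads were aligned to mm9 with BSMAP 2.74, per the submitters' processing notes. The deposited fraction was not used. The counts of both strands of a CpG were summed, and a CpG entered when every one of the 15 libraries held 10 reads or more there. All 241527 lie on CG in the reference. Genes came from GENCODE vM1 and sequences from mm9.

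Windows of 1 kb with at least 3 CpGs were fitted with a quasi-binomial model (Python 3.11.15, numpy 2.4.6, scipy 1.17.1) with 7 group means, 8 residual degrees of freedom and a dispersion shrunk over all windows (prior 5.33 degrees of freedom) and not under 1. The F test of each of 8 comparisons was adjusted by Benjamini-Hochberg over 29251 windows. Calls needed an adjusted p below 0.05 together with a difference of 10 points or more. The model was also run on simulated data with a single spread for all windows and no source shared by GMP and MEP. That setting is simpler than these libraries, so the run lends no support to single calls. Alternatives were limma 3.58.1 in R 4.3.3, 20 reads, 500 bp windows, a replicate block and each library left out. The fit of single CpGs and the equal weighting of CpGs were chosen after seeing the data.

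Members and gene lists were chosen with earlier results of these data known. All members were named, every called window of a related gene (up to 25), and the 5 windows most like that of Hlf by Pearson r. Depth bounds single levels by counting error only, since reads without molecular identifiers are not independent molecules.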

Additional observations from a re-analysis of the deposited data

Results flagged for a closer look

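At the Dbp CpG 1408 bp upstream of the start, both Idh2 R140Q MEP libraries (52.9 and 85.0%) lay above both wild type MEP libraries (45.5 and 50%), a mean difference of 21.2 points. In GMP both Idh2 R140Q libraries (10.5 and 55.6%) lay below both wild type libraries (70.0 and 62.1%), a mean difference of -33.0 points. The opposite directions in the 2 cell types brought this CpG here, and the difference between them was not tested. It had 13 to 30 reads a library.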

How the results depend on the processing

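The 32 main values were recomputed in 414 combinations with an alternative, of which 368 stayed within the tolerance set for their kind. For counts of calls it was 1.5 times. For Hlf levels it was 1 SD between replicates, taken from the compared group with the larger SD. For TTACGTAA it was sign and side of 0.05, but p could not fall below 0.1, so only the sign could change. A change of sign was found in 16 combinations, of which 6 were pooled Hlf differences and 10 TTACGTAA levels. At Hlf a change such as that from 7.02 to -0.48 points (Idh2 R140Q MEP) stayed within the tolerance. Counts of 0 that stayed 0 are also among the 368, which is therefore no measure of how firm the results are. With 20 reads, 2 of the 7 Hlf body CpGs remained, those 32769 and 9272 bp downstream, both highly methylated in the double mutant. The pooled differences became -28.5 points for knockout GMP, -5.74 for knockout MEP, -2.19 for Idh2 R140Q GMP and -17.9 for wild type MEP against GMP. For the double mutant they became 28.7, 34.5 and 19.2 against wild type, knockout and Idh2 R140Q MEP. With each CpG counted equally, knockout MEP was at -11.9, wild type MEP against GMP at -15.9 and Idh2 R140Q MEP at 11.3 points. The double mutant was at 5.67 points against wild type MEP and at -5.61 against Idh2 R140Q MEP. Against wild type MEP, the double mutant and Idh2 R140Q MEP did not overlap in this weighting, whereas both overlapped with reads pooled. Among related genes, 20 reads left 27 windows, with 2 calls in each double mutant comparison and 0 for knockout MEP. Knockout MEP also had 0 with 500 bp windows, limma and the replicate block. Limma left 3 calls against wild type and 3 against Idh2 R140Q, where it called 3128 and 3218 of all 29251 windows. The Dbp window call against knockout became 0 with 500 bp windows. Single CpGs gave 3 calls against wild type and 2 against Idh2 R140Q for Dbp, Tef and Nfil3, beside 9.06% and 8.06% of all CpGs. The cause was not tested.

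Limma ended the calls of Arntl, Rorb against wild type and Idh2 R140Q, Cebpb, Tcf3 for knockout and against Idh2 R140Q, and Alas1 (adjusted p = 0.0813 to 0.233). The replicate block ended the Rora window methylated in all groups (adjusted p = 0.0694), Cebpb (0.0843) and Tcf3 for knockout (0.0812) and against Idh2 R140Q (0.0527). Replicate numbers were shared between groups, and whether GMP and MEP libraries of a number came from the same animal is not known. Replicate 1 deviations of GMP and MEP correlated at 0.379 in wild type, 0.54 in Idh2 R140Q and -0.0469 in knockout. Between groups of different genotypes they correlated at -0.0603 to 0.0516. The main fit took all libraries as independent, so a source shared by GMP and MEP was not modelled.

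With each library left out, calls in Dbp, Tef and Nfil3 ran from 0 to 1 for knockout MEP and for the double mutant against wild type and Idh2 R140Q, and from 1 to 2 against knockout. In related genes they ran from 4 to 6 against wild type, 5 to 7 against knockout, 3 to 7 against Idh2 R140Q, and 0 to 1 for knockout MEP, Idh2 R140Q MEP and wild type MEP against GMP. The lowest, 3, came without Idh2 R140Q MEP library 2. Without Idh2 R140Q MEP library 1, Alas1 was called in Idh2 R140Q MEP (24.9 points, adjusted p = 0.0476). Pooled Hlf body differences ran from -21.4 to -19.3 (knockout GMP), -16.5 to -15.5 (knockout MEP), 6.52 to 15.8 (Idh2 R140Q GMP), -0.48 to 14.5 (Idh2 R140Q MEP), -0.45 to 7.30, 15.5 to 23.3 and -10.3 to 4.73 (double mutant against wild type, knockout and Idh2 R140Q), and -14.0 to -13.4 (wild type MEP against GMP).

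The 4 CpGs in TTACGTAA changed direction with the setting in most comparisons. The sign held for Idh2 R140Q GMP, the double mutant against wild type and wild type MEP against GMP, though these differences were small. With 20 reads, knockout MEP was at -0.010 and the double mutant against Idh2 R140Q at 0.378 points. With libraries left out, differences ran from -2.71 to 0.043 for knockout GMP, -0.536 to 1.26 for knockout MEP (-0.176 without wild type MEP library 1), 0.096 to 5.78 for Idh2 R140Q GMP, -0.536 to 3.41 for Idh2 R140Q MEP, 0.287 to 1.49 for the double mutant against wild type, -0.318 to 1.47 against knockout (-0.074 without double mutant library 2), -2.47 to 1.47 against Idh2 R140Q (0.050 without double mutant library 3), and -2.77 to -0.020 for wild type MEP against GMP. Levels at CpGs with 10 to 20 reads move by several points with each read, and groups of 2 libraries give a weak estimate of spread.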
